A study of Mus musculus with 12 samples.

Results

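The regions described here had an ATAC-seq peak in both Aire-deficient libraries, in none of 6 wild-type libraries and not in both libraries of C442G heterozygotes. They numbered 1681 of 222625 regions on chromosomes 1 to 19 (0.755%), and 1681 of the 58623 regions with a peak in both knockout libraries (2.87%). They were selected on the peak calls themselves, so their presence in the knockout and absence in wild types is the rule and not a result, and no test was made of it. A region was the union of all peaks of the 12 lists that overlapped by at least 1 bp. Absence of a peak means that the authors' caller reported none in that library, at a depth that is unknown, and not that the chromatin was shut.

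The cells were mature medullary thymic epithelial cells (mTEChi) sorted from the thymus of C57BL/6 mice of 4 to 7 weeks after digestion with Liberase TH and DNase. The 12 libraries formed 6 groups of 2. These were Aire -/- mice, Aire +/C313Y heterozygotes and Aire +/C442G heterozygotes, which carry 1 copy of Aire with a cysteine changed in the first or in the second of its PHD zinc fingers, and 3 pairs of Aire +/+ wild types whose titles tie them to the knockout, the C313Y or the C442G set. The labels do not say which part of Aire the knockout lacks, nor whether the libraries of a group came from separate mice, so the spread between them may be technical.

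ATAC-seq maps the stretches of DNA that a transposase can reach, chiefly promoters and enhancers that nucleosomes leave free. AIRE is a nuclear protein of mTEChi that raises transcription of many tissue-restricted genes, so that developing T cells that recognise those self antigens can be removed or turned into regulatory cells. It acts largely on chromatin that is already marked as inactive and on polymerases that have paused, and its effect on accessibility in these cells is a question the knockout and the mutants address.

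The lists held 33502 and 33933 peaks in the wild types of the knockout set, 54613 and 71554 in those of the C313Y set, 91851 and 92618 in those of the C442G set, 84037 and 93198 in the knockout, 56173 and 74167 in C313Y heterozygotes and 112808 and 120031 in C442G heterozygotes. Peaks within 1 kb of an annotated gene end were present in both knockout libraries at 8 of 13 genes of mTEC identity and antigen presentation, and at 13 of 14 NF-kB pathway genes, against 59.9% of all 20661 protein-coding genes. Of the mTEC genes Cd80, Ciita, Krt5 and Ccl21a had none in either knockout library, and Ciita had none in any library. Of 14 thymocyte and T cell genes, 6 and 5 had a peak in the knockout libraries, 2 and 2 in their own wild types, and 5 and 4 in the wild types of the C442G set. Of 10 dendritic cell and macrophage genes 6 and 5 had one in the knockout libraries, 3 and 2 in their own wild types and 6 and 7 in the wild types of the C442G set. For 8 fibroblast and mural cell genes the counts in the same order were 5 and 6, 3 and 1, and 6 and 6. For the 13 mTEC genes they were 8 and 9, 7 and 6, and 10 and 11. Over all protein-coding genes the shares were 62.3% and 64.0% in the knockout, 52.5% and 52.6% in its own wild types and 64.4% and 65.5% in the wild types of the C442G set. Of the T cell genes Cd8a, Lck, Zap70, Rag1, Rag2 and Themis had none in any library. The part of other cells in the results below was not tested.

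The promoters of 6 protein-coding genes are shown because a region covered part of them and because transcription starts there at the outer end of the annotated gene. Each line gives the 250 bases before the start, from RefSeq (GRCm38.p6, which shares coordinates with mm10), 5′ to 3′ on the strand of the gene, and capitals mark the bases inside the region. The stretches lie at chr8:95054853-95055102 (plus strand, Drc7), chr5:135089640-135089889 (plus, Mlxipl), chr2:69669870-69670119 (plus, Klhl41), chr6:49822460-49822709 (plus, Npy), chr1:65032760-65033009 (minus, Akr1cl) and chr17:37263663-37263912 (minus, Olfr98).
Drc7: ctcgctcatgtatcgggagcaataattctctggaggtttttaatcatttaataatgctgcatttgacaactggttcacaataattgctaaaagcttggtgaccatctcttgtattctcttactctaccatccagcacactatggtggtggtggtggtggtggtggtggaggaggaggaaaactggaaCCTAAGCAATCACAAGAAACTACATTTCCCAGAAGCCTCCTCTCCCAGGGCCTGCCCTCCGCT
Mlxipl: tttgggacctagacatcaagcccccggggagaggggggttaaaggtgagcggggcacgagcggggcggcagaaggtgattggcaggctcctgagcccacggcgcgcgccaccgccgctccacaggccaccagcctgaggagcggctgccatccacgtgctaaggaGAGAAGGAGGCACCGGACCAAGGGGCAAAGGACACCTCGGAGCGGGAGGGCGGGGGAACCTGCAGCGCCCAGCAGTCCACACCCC
Klhl41: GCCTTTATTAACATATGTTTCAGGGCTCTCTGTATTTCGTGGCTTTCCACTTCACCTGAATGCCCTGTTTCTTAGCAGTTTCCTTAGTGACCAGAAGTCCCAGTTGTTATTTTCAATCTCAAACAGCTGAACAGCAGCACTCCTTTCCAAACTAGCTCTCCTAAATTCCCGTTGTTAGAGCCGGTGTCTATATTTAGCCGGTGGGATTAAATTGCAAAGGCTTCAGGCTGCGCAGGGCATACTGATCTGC
Npy: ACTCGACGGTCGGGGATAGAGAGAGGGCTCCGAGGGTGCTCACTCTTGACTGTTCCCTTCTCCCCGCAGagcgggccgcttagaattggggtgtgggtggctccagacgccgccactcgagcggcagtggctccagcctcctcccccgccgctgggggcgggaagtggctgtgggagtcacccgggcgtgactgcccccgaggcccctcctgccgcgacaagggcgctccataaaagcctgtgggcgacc
Akr1cl: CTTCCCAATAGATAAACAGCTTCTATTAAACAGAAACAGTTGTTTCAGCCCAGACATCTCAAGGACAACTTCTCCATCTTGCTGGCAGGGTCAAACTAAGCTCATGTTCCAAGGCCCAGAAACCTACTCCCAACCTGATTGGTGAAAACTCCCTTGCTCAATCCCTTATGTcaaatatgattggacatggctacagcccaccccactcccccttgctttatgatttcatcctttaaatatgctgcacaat
Olfr98: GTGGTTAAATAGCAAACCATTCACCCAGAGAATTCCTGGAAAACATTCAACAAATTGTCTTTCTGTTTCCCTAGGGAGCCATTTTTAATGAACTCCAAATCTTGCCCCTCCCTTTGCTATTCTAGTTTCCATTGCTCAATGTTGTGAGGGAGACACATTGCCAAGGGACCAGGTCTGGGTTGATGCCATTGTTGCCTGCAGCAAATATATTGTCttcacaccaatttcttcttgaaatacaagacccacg

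Drc7 encodes a part of the dynein regulatory complex of cilia and sperm tails. Its region (chromosome 8, 95055040 to 95055191) had the authors' fold enrichments over background of 4.45 and 5.58 in knockout replicates 1 and 2. It crossed the start of the gene and was also called in C313Y heterozygote replicate 2 and in C442G heterozygote replicate 1. Klhl41 encodes a protein of skeletal muscle sarcomeres. All 250 bases printed lay inside its region (chromosome 2, 69669785 to 69670347), which had folds of 3.24 and 3.95 and was called in no heterozygote. Npy encodes neuropeptide Y, and its region (chromosome 6, 49821920 to 49822528), with folds of 3.10 and 3.19, ended 182 bp before the gene, 25 bp from the nearest wild-type peak. Mlxipl encodes the glucose-responsive factor ChREBP of liver and fat, and its region had folds of 3.32 and 4.03. Akr1cl, a gene of the aldo-keto reductase family, had folds of 3.08 and 3.79, and the olfactory receptor gene Olfr98 had 3.58 and 3.09. The regions at Klhl41 and Olfr98 were called in the knockout lists alone, and each of the other 4 was also called in 1 C442G heterozygote library.

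From 250 bases before to 50 after a RefSeq start, 23 windows of protein-coding genes met a region, of which 2 overlapping windows belong to Serpinb2. At Hecw2 and Olfr95 the region met only bases after the start. Base composition and motifs were read in the 250 bases before each start, whose median GC content was 56.0% in the 23 windows and 56.0% in all 20084. Motifs were searched on both strands, and a match describes letters only. The AP-1 motif TGANTCA was in 2 of the 23 windows, which are the overlapping windows of Serpinb2 and hold the same site (6.18% of all windows). The grainyhead motif AACNNGTT was in 1, at Drc7 (3.59%), and the NF-kB motif GGGA, any 3 bases, CCC in 1, at Hecw2 outside its region (5.59%). The IRF motif GAAA, any 2 bases, GAAA was in 2, at Eomes outside its region and at Olfr98 (2.97%). The ETS motif CCGGAAG (9.21%), the PU.1 motif AGAGGAAGT (0.807%), the RUNX motif TGTGGTT (3.84%), the POU motif ATGCAAAT (1.59%), the CTCF motif CCAC, any base, AG, any base, GG (1.33%) and the p63 motif CATG, any 6 bases, CATG (0.433%) were in 0 of the 23. In the sequences shown, the grainyhead match at Drc7 (aactggtt, 183 bases before the start) lay outside the region and the IRF match at Olfr98 (TTTCTGTTTC, read on the other strand, 191 bases before the start) inside it.

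Most of the regions were also called in a heterozygote, so the name knockout-only holds for the smaller part of them. Of the 1681, 643 (38.3%) had a peak in the knockout lists alone and 1038 (61.7%) in at least 1 heterozygote library as well. C442G heterozygote replicate 1 had a peak in 512 of them (30.5%) and replicate 2 in 451 (26.8%), and since the rule removed regions called in both, these 963 regions do not overlap. The rule did not use the C313Y heterozygotes. They had a peak in 196 of the 1681 (11.7%, replicate 2) and 79 (4.70%, replicate 3), 245 regions in all (14.6%) and 30 in both. Over all 222625 merged regions the counts were 117920 and 110742 for C442G heterozygotes and 72406 and 54784 for C313Y heterozygotes, in the same order. The C442G peaks in the regions kept by the rule had a median percentile of 27.5 in replicate 1 and 26.4 in replicate 2 of their own lists. The percentile is the share of the other peaks of a list with a lower −log10 p. The rule bears on these values, since it kept only C442G peaks without a peak in the other C442G library or in a wild type. The other 1595 of the 3276 regions with peaks in both knockouts and no wild type (48.7%) were in both C442G heterozygotes and were left out by the rule.

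**Figure D1:**
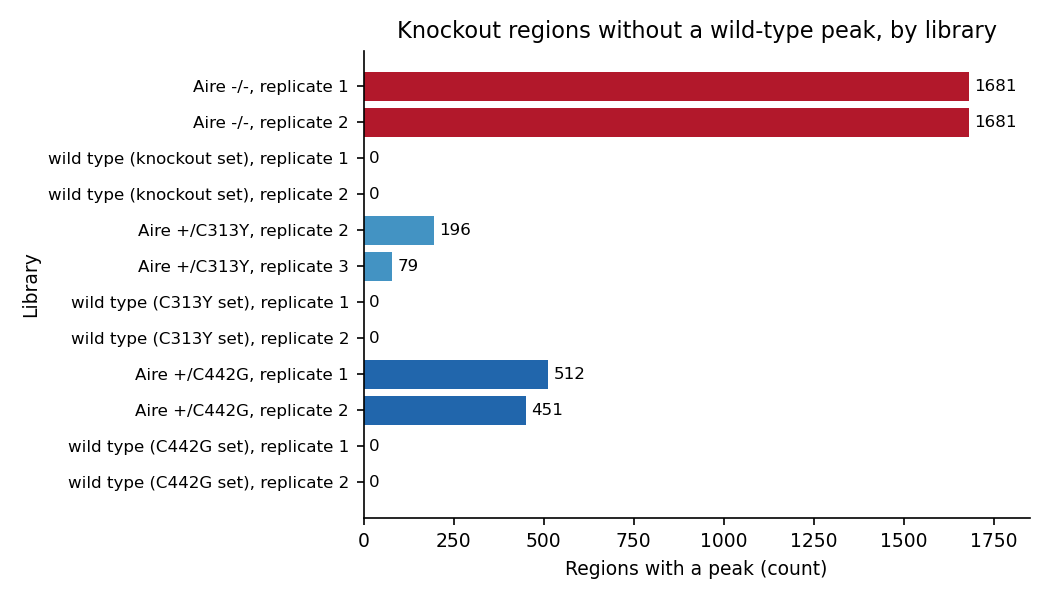
Number of the 1681 regions with a peak in each of the 12 libraries (count). The rule sets 1681 in both knockout libraries and 0 in the 6 wild types, and the heterozygote libraries called 79 to 512 of the regions.

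The share called in C313Y heterozygotes was below that of most other regions. Among all merged regions 36.8% had a peak in either C313Y heterozygote, among regions with peaks in both knockouts 82.4%, and among the regions described here 14.6%. Among the 1595 regions in both knockouts, both C442G heterozygotes and no wild type it was 31.1%. Among the 7736 regions in both C442G heterozygotes and no wild type that were not in both knockouts it was 15.4%. All these sets were formed by peak calls, and their differences were not tested, since regions of the same libraries are not replicates.

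Calling in a second library was no more frequent between the 2 knockouts than between a knockout and a C442G heterozygote when the full lists were used. Knockout replicate 1 had 18265 regions without a wild-type peak. Of these 17.9% were also called in knockout replicate 2, 22.1% and 20.9% in the C442G heterozygotes, and 6.00% and 2.73% in the C313Y heterozygotes. Of the 20369 such regions of knockout replicate 2, 16.1% were also called in replicate 1 and 27.9% and 26.2% in the C442G heterozygotes. The C442G lists were longer. The C442G lists and that of knockout replicate 2 were reduced to their 84037 strongest peaks by −log10 p, while the 18265 and 20369 regions stayed the same. This is the length of the shorter knockout list, and with it the order turned. Knockout replicate 2 then held 16.0% of the regions of replicate 1 against 11.2% and 11.8% in C442G heterozygotes, and knockout replicate 1 held 16.1% of those of replicate 2 against 14.1% and 14.6%. Within C442G heterozygotes, 33.0% of the regions of replicate 1 without a wild-type peak were called in replicate 2, and 41.2% the other way, with full lists.

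**Figure D2:**
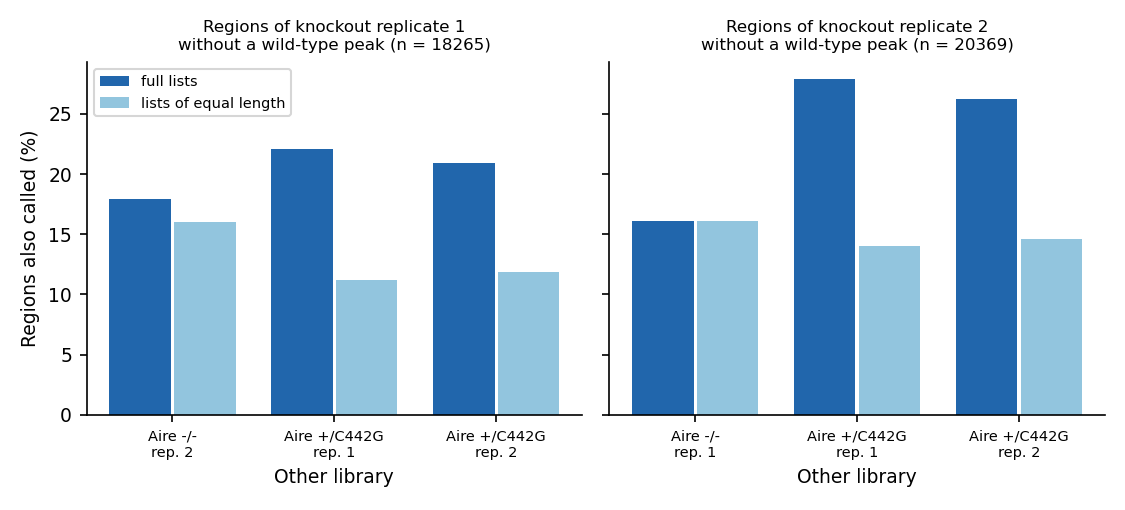
Share (%) of the regions called in 1 knockout library and in no wild type that another library also called, with full lists and with lists of 84037 peaks. With full lists the C442G heterozygotes held 20.9% to 27.9% and the other knockout 16.1% to 17.9%, and with lists of equal length the other knockout held the most.

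Regions private to a genotype were counted in every group for comparison. Regions called in both libraries of a group and in none of the other 10 numbered 643 in the knockout, 1.10% of the regions in both its libraries. They made up 1.17% in the wild types of the C442G set (816 regions), 0.827% in C313Y heterozygotes (375), 0.852% in the wild types of the C313Y set and 0.118% in the wild types of the knockout set (25). C442G heterozygotes, with the longest lists, had 4193 (4.68%). The knockout share thus lay between the values of 2 wild-type pairs, and depth was not known for any library.

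Within the knockout lists the regions were weak. The median percentile was 25.9 in replicate 1 (quartiles 14.1 and 41.5) and 27.7 in replicate 2 (15.3 and 42.5). The authors' fold enrichment had a median of 3.44 and 3.50, against 4.15 and 4.22 over all peaks of these lists. Above the median peak of both lists stood 78 of the 1681 regions (4.64%), and a −log10 q of at least 3 in both was reached by 59 (3.51%). The rank of a region, the lower of its 2 percentiles, was under 10 in 503 regions (29.9%). Regions called in the knockout lists alone had a median rank of 14.9 and a median width of 156 bp (n = 643), those in 1 heterozygote list 18.98 and 192 bp (n = 861), and those in 2 or 3 heterozygote lists 22.04 and 207 bp (n = 177). The share of both-knockout regions that met the rule fell with this rank. Of the regions ranked under 10, 17.7% met it, of those ranked 20 to 30, 5.95%, of those ranked 40 to 50, 1.79%, and of those ranked 70 to 80, 0.0432%. Among these same classes 69.0%, 84.5%, 93.6% and 99.6% had a peak in at least 1 wild type of the C442G set. These values are part of how the regions were chosen and describe them only.

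**Figure D3:**
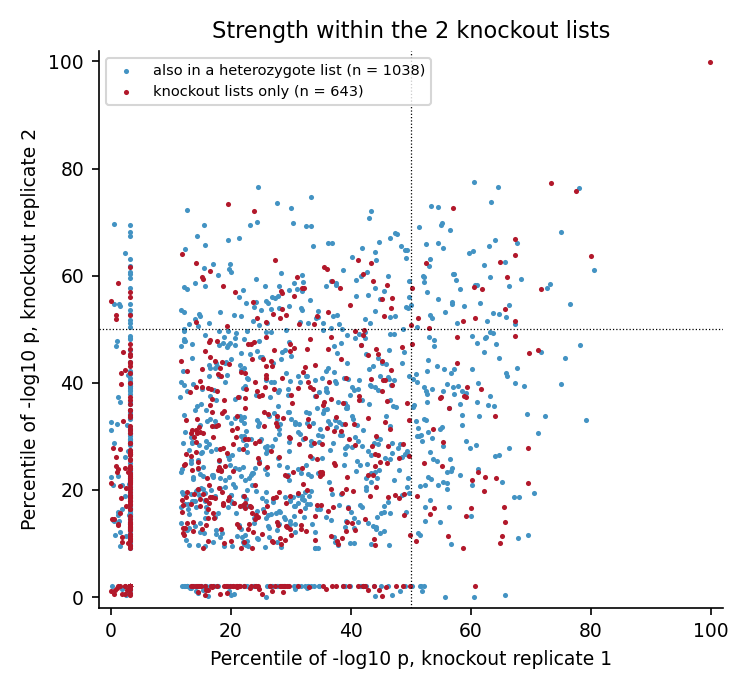
Percentile of −log10 p of each of the 1681 regions in knockout replicate 1 (x axis) and replicate 2 (y axis), with dotted lines at the list medians. In both lists at once 78 regions exceed the median, 1 region stands alone near the upper right corner, and the stripes at low percentiles are peaks with equal −log10 p (243 in replicate 1, 158 in replicate 2).

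The strongest region ranked well above the rest. Lists of high-signal regions and the structure of the knockout allele were not used here, so its values were not checked against either. This region lay between genes on chromosome 2 at 90395131 to 90395198, 5442 bp from the olfactory receptor gene Olfr1274 (90400640 to 90401674), and was 68 bp wide with the same bounds in both lists. Its folds were 18.5 and 24.0, above 99.8% and 99.9% of the other peaks of the 2 lists. No heterozygote had a peak there, and the nearest wild-type peak lay 28980 bp away. In the knockout libraries the next peak was 63307 and 58391 bp away. Peaks this strong were seldom so narrow, with 5 of 841 and 3 of 932 peaks above the 99th percentile under 100 bp wide, and their median widths were 358 and 385.5 bp. Of these narrow strong peaks the Olfr1274 region was the 1 without a wild-type peak. The second region in rank reached 76.4.

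That second region (chromosome 11, 17284186 to 17284278) lay 15010 bp from C1d, a gene of RNA processing by the exosome, with folds of 6.20 and 6.37, and was also called in C313Y heterozygote replicate 2. The third (chromosome 4, 131070712 to 131070798), 115236 bp from the cartilage matrix gene Matn1, had 6.20 and 6.29. The fourth (chromosome 4, 129417877 to 129418092), 7673 bp from the zinc finger gene Zbtb8b, had 5.63 and 6.49. Neither of these 2 was called in a heterozygote. Inside genes, the highest ranks were reached at Mmrn1, an adhesive protein of platelets and endothelium (5.83 and 5.43), the chromatin reader gene Cdyl (5.19 and 5.25), Hspa14, a ribosome-associated chaperone (4.98 and 6.20), the protein kinase D gene Prkd2 (4.66 and 4.92), Wwox, an oxidoreductase gene that spans a common fragile site (5.10 and 5.05), Rtkn2 (4.83 and 5.12), the condensin gene Ncaph2 (4.84 and 4.73) and Tmtc2 (4.997 and 4.96). The other 3 of the 15 highest lay between genes, 440736 bp from the glutamate receptor gene Grin3a (5.13 and 5.32), 471104 bp from the peroxisome gene Pex2 (6.31 and 4.94) and 14380 bp from Afg1l (4.87 and 6.07). Of these 15 regions 8 were under 100 bp wide and 7 were called in no heterozygote, beside 643 of all 1681 (38.3%).

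In the upper percentile classes the knockout peaks of these regions were narrower than all knockout peaks of the same class. From the 50th to the 60th percentile their median width was 105 bp in replicate 1 and 99.5 bp in replicate 2, against 136 and 146 bp over all peaks. At or above the 60th percentile it was 92 bp in replicate 1 (n = 103) and 107 bp in replicate 2 (n = 100). Over all peaks of that class it was 194 and 206 bp. Widths over 200 bp were found there in 2.91% and 9% of the peaks of these regions, against 48.4% and 51.2% of all. This class is open at the top, and only 4 regions stood above the 70th percentile in both lists, so strengths within it were not alike. Below the 10th percentile the order was the reverse, 104.5 and 119 bp against 92 and 93 bp. The rule bears on this, since a wider region has more room to meet a wild-type peak, and the difference was not tested. The merged regions had a median width of 180 bp (quartiles 125 and 282, range 67 to 957), against 167 bp for all merged regions and 406 bp for regions in both knockouts. The widest lay inside Prickle1, a planar cell polarity gene (957 bp), 22 bp from the start of the ubiquitin ligase gene Hecw2 (804 bp), 74174 bp from the repressor gene Zeb2 (705 bp), inside the cytokine gene Il12a (693 bp) and at Rprm (691 bp). In 47 regions the 2 knockout peaks did not overlap each other, so these regions rest on heterozygote peaks that join them.

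**Figure D4:**
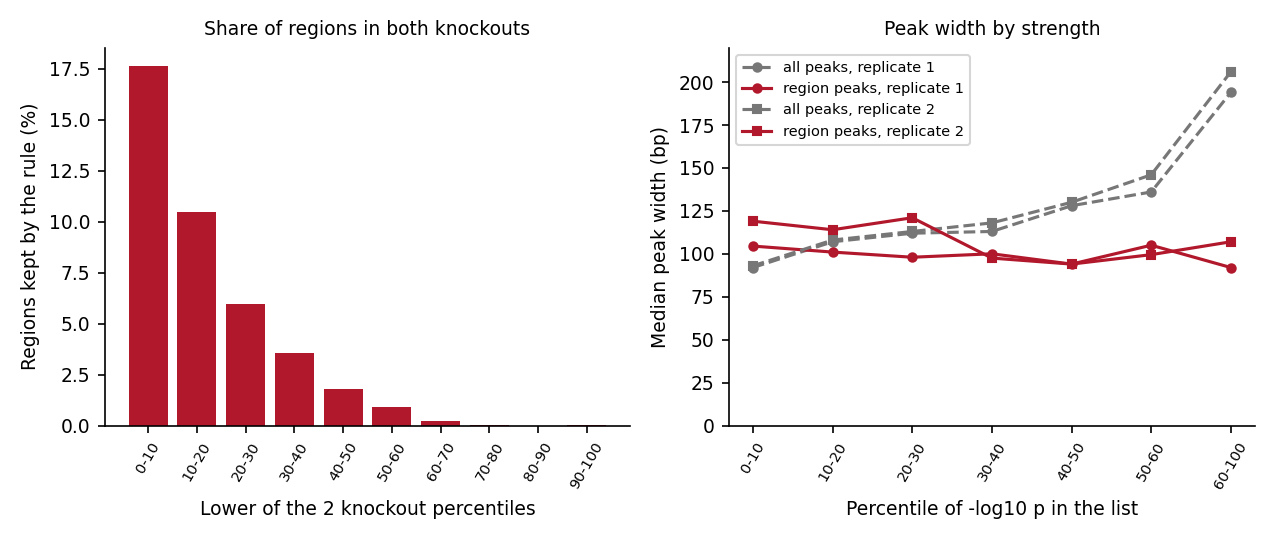
Left, share (%) of the regions in both knockouts that met the rule, by the lower of the 2 knockout percentiles. Right, median width (bp) of all knockout peaks (grey) and of the peaks in the regions (red) by percentile class. The share falls from 17.7% to under 0.1%, and the red lines stay between 92 and 121 bp while the grey lines rise to 194 and 206 bp.

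In position the regions were mostly away from gene ends. Within 1 kb of an annotated end of a protein-coding gene lay 86 of them (5.12%), inside genes 882 (52.5%) and between genes 713 (42.4%). Of all merged regions 9.75% lay near a gene end, 47.4% inside genes and 42.9% between genes. Regions in both knockouts lay near gene ends in 21.8% and regions in all 12 libraries in 49.2%. Other sets without wild-type peaks had low shares too, with 4.08% for those in both knockouts and both C442G heterozygotes and 4.21% for those in both C442G heterozygotes and not both knockouts. Off chromosome 18, whose promoters were not used here, 29 of 1630 regions (1.78%) overlapped the stretch from 250 bp before to 50 bp after a RefSeq start, against 17.7% for regions in both knockouts and 6.05% for all. More than 200 kb from any gene end lay 192 regions (11.4%), against 5.34% of the regions in both knockouts and 9.03% of all.

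**Figure D5:**
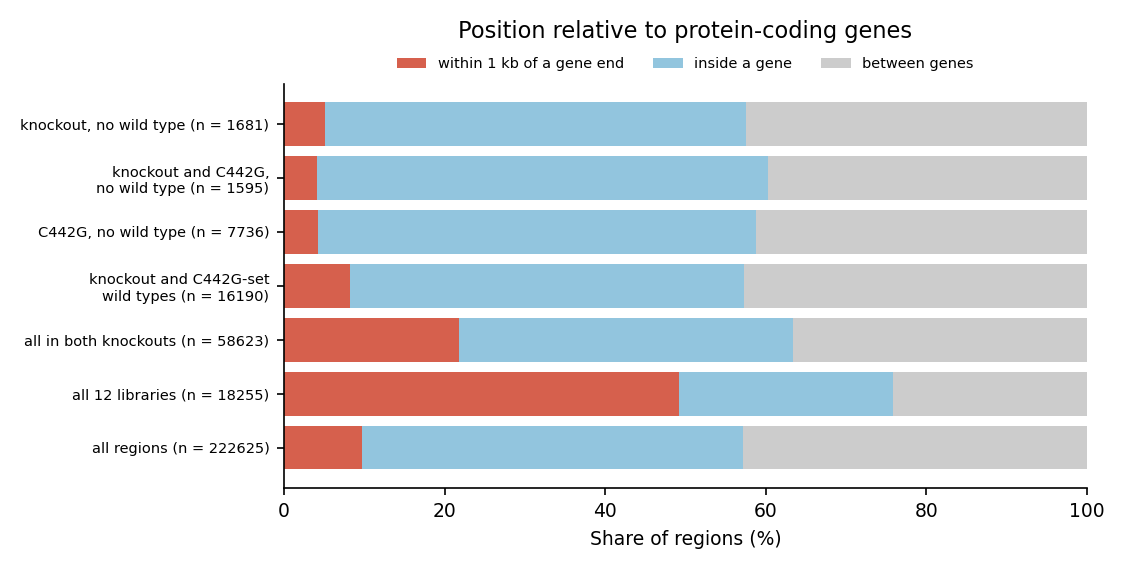
Share (%) of regions by position (red, up to 1 kb from a gene end; blue, within a gene; grey, intergenic) for the 1681 regions (top bar) and 6 other sets. Gene-end shares run from 4.08% to 8.19% in the top 4 bars and reach 21.8% for both knockouts and 49.2% for all 12 libraries.

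Near gene ends the highest ranks were those at Drc7, described above, and at Defb33, a beta-defensin gene (chromosome 8, 20896793 to 20896920), with folds of 4.34 and 5.95. They were followed by Pcnx4 (4.37 and 3.72), the doublecortin-domain gene Dcdc2b (4.21 and 4.06), Ing2, a reader of histone methylation (4.08 and 4.26), the glutamine transporter Slc1a5 (4.05 and 4.03), Fubp1 (3.89 and 4.96), Psmb11 (3.87 and 4.50), Ubap1 (3.86 and 3.73) and the protocadherin Pcdhga7 (3.76 and 3.97). Of the 86 regions 35 were called in no heterozygote, beside 643 of all 1681 (38.3%). Among the 35 were those at Dcdc2b, Slc1a5, Fubp1 and Psmb11.

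Distances to wild-type peaks are given as a description, since they were not measured for other positions of the genome. The nearest peak of any wild type lay at a median distance of 4327 bp, and 157 regions (9.34%) had one within 500 bp and 298 (17.7%) within 1000 bp. Over 10000 bp from any wild-type peak lay 410 (24.4%). Regions in both knockouts and both C442G heterozygotes but no wild type had a median of 4219 bp. Short of the rule by 1 wild-type library fell 995 regions, of which 397 and 360 had their peak in the C442G set, 118 and 75 in the C313Y set and 18 and 27 in the knockout's own wild types. At the edge of the caller's threshold, the weakest regions kept were near Tcf7l2 (−log10 q of 1.006 in replicate 2), Etv3l (1.007 in replicate 1) and Zfp64 (1.009 in replicate 2). Just outside lay regions with 1 wild-type peak, taken from the lists that give q values, which those of the C313Y set do not. They were near Ndufaf6 (−log10 q of 1.006 in a C442G-set wild type), the tuft cell gene Sh2d6 (1.07 in wild-type replicate 2 of the knockout set) and Lrrn4cl (1.08 in wild-type replicate 1 of that set).

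Along the genome the regions were spread over all 19 autosomes. Per chromosome they made up 2.08% (chromosome 7) to 3.90% (chromosome 14) of the regions in both knockouts, with chromosome 1 holding the most (159). Neighbouring regions lay a median of 778197 bp apart, and 25 neighbouring pairs were within 10000 bp. The most in a window of 1 Mb was 5, reached in 9 of the 1078 windows with a region, and in 2 of the 9 all had the same nearest gene. In 1 they lay inside Pard3b, a cell polarity gene, and in the other they lay 19913 to 181162 bp from the neural adhesion gene Chl1, with 1 of them within 50 kb. Around Aire (chromosome 10, 78030022 to 78043610) the share did not stand out. Within 1 Mb there were 3 regions of 95 in both knockouts (3.16%), and within 10 Mb 19 of 785 (2.42%). Those within 1 Mb lay next to Trappc10 (folds of 3.63 and 3.85), inside Tspear (3.91 and 3.61) and at Olfr57 (3.06 and 2.99), each also called in 1 C442G heterozygote.

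Of 20661 protein-coding genes, 1181 (5.72%) were the nearest gene to a region within 50 kb. These genes were long, with a median of 77493 bp against 17491 bp for all, and longer genes offer more room for a region. The 20 genes with 3 or more regions had a median of 384954 bp. The most regions were at Arl15, a small GTPase gene (5 regions), Pard3b (5) and Defb33 (4), followed by genes with 3, among them Wwox, the cell adhesion gene Dscam, the peptide-amidating enzyme Pam and the receptor kinase Alk. The 4 regions of Defb33, a gene of 5057 bp, lay between 20874656 and 20896920 on chromosome 8, and each was also called in 1 C442G heterozygote. The 3 regions of Pax5 are described with the B cell genes.

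Genes of the medullary programme were counted beside the 5.72% of all protein-coding genes that were nearest to a region within 50 kb. Short lists can hold none at that share, and no difference from it was tested. None of 13 genes of mTEC identity and antigen presentation was nearest to a region, nor any of 15 AIRE partner genes, 11 thymic tuft cell genes, 9 genes of corneocyte-like cells, 8 antigen genes that depend on Fezf2 or need no AIRE, 49 keratins or 39 Hox cluster genes. Of 11 Aire-induced antigen genes matched, 1 (9.09%) was nearest to a region. This was Npy, with 2 regions, 1 of them at its promoter. Of 14 NF-kB genes 2 (14.3%) had 1 region each. They were Nfkb1, which encodes an NF-kB subunit (folds of 3.42 and 3.46), and Birc3, an inhibitor of apoptosis (2.88 and 3.08). Olfactory receptors had 9 of 1104 (0.815%), vomeronasal receptors 1 of 354 (0.282%), cytochromes P450 1 of 99, serpins 1 of 62 and genes named as zinc fingers 14 of 388 (3.61%). Olfactory and vomeronasal receptor genes are short, with medians of 950 and 961.5 bp.

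Among genes of other cells of the thymus, 0 of 14 thymocyte and T cell genes, 0 of 10 dendritic cell and macrophage genes and 0 of 8 fibroblast and mural cell genes were nearest to a region. Cortical epithelial genes had 3 of 7. They were Psmb11, the thymoproteasome subunit of cortical cells (chromosome 14, 54625419 to 54625641, 109 bp inside the gene end and 123 bp from a wild-type peak), the chemokine Ccl25 (3.73 and 4.42) and the endocytic receptor Ly75 (3.59 and 2.99). B cell genes had 2 of 6, the transcription factors Ebf1 (4.32 and 4.11) and Pax5, with 3 regions 5365 to 26341 bp beyond its end and none called in a heterozygote. Endothelial genes had 4 of 8, namely the receptors Flt1 (3.73 and 3.62) and Tek (3.04 and 4.67), the transcription factor Erg (3.53 and 3.23) and the claudin Cldn5 (3.35 and 3.06). Regions at Ebf1, Ccl25, Ly75, Flt1, Tek and Erg were each also called in 1 C442G heterozygote library. Those at Psmb11 and Cldn5 were called in no heterozygote. The endothelial genes had a median length of 75538.5 bp, the cortical genes 16878 bp. In the 2 knockout libraries 2 and 2 of the 8 endothelial genes had any peak within 1 kb of an end, against 1 and 1 in their own wild types and 4 and 4 in the wild types of the C442G set, and Pecam1 and Cdh5 had none in any library. These lists are short, and their counts stand beside the 5.72% of all genes as a description.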

How the data were processed

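ATAC-seq peak lists of 12 libraries of sorted mTEChi were used, 1 list per library, so peaks were called per sample. Cutadapt, Bowtie2, Picard, MACS2 and the build mm10 are named in the submitters' processing notes, without version or order. How reads were shifted and deduplicated, and whether a control was used, is not given in the sources used here. The deposited broad peak files of 8 libraries give positions, the fold enrichment (a ratio over background), −log10 p, −log10 q and a score, which in the files deposited is 10 times −log10 q cut to a whole number and was not used. The 4 lists of the C313Y set, as the authors deposited them, give positions only. The depth of the libraries is unknown, and longer lists can come from deeper libraries.

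Peaks on chromosomes 1 to 19 that shared at least 1 bp were merged into regions with Python 3.11.15, numpy 2.4.6 and pandas 2.3.3. Genes were the 20661 protein-coding genes of RefSeq for GRCm38.p6. Strand and start were taken from its promoter table, in which 16456 of these genes matched. The members, gene lists and naming rule (the 15 highest ranks, 10 near gene ends, the 5 widest, the genes with most regions, regions within 1 Mb of Aire, up to 4 genes per list) were chosen with earlier results of these data known. The 9 windows of 1 Mb tied for most regions were counted and only those with 1 gene named. Spt1 matched no gene. Some genes and 1 gene list are not reported here. The steps were tested on simulated lists. No significance test was made, because the rule uses the same peak calls. Alternatives were stricter thresholds, shorter lists, other merging and overlap, other conditions on C442G heterozygotes, chromosome X and libraries left out 1 at a time. Each knockout, wild-type and C442G heterozygote library was left out, and the merged regions stayed those of all 12 libraries.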

Additional observations from a re-analysis of the deposited data

How the results depend on the processing

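The number of regions (1681) moved with the threshold and with a strong cut of the knockout lists. With a −log10 q of at least 3 in the knockout lists 59 were kept (3.39% near a gene end, median width 149 bp), with that threshold in all 8 lists with q values 298, and with knockout lists cut to the 33502 strongest peaks 13, of which 0% lay near a gene end and whose median width was 96 bp. A cut to 91851 peaks, the length of the shorter C442G-set wild-type list, which shortens only knockout replicate 2, left 1642. No peak in either C442G heterozygote gave 718 regions (159 bp), and no condition on them 3276 (214 bp). Merging peaks up to 1000 bp apart gave a share near gene ends of 3.89% and a width of 235 bp, and an overlap of 50% of the shorter knockout peak a width of 76 bp, measured on the shared part. Gene windows of 500 and 2500 bp gave shares of 2.68% and 8.69%. A C313Y peak over at least 50% of the region was found in 9.40% of regions. With lists of 84037 peaks, chosen after seeing the data, 16.0% of the regions of knockout replicate 1 were also in replicate 2. In leave-one-out the number ran from 1169 to 16789, the width from 94 to 184 bp and the share near gene ends from 3.91% to 5.53%. Without knockout replicate 1 and without replicate 2, the rule asked for a peak in the remaining knockout library only. There were then 16789 and 15670 regions, which still include those called in both. Without any 1 wild type there were 1699 to 2078. The cause was not tested where fewer peaks or libraries do not account for it. No paired analysis was possible because the counts come from no test. Only 2 libraries per group and unknown depth limit every comparison.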
